A study of Mus musculus with 2 samples.

Results

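The cell cycle and DNA replication genes described here are 44 genes: 15 regulators of G1, 13 replication genes and 16 mitotic genes. They were listed by symbol for their roles, and no measured value enters the rule, although earlier results of these data were known when the list was made. A member entered through the probe sets (groups of short probes for 1 transcript) annotated to its symbol alone, and 43 of the 44 could be read, among 18193 named genes in all. Ccnb1, the cyclin B1 gene, had no probe set with its name alone, so its expression is not analysed here. Its promoter window is among those counted later. All 43 lay above the floor described later on both arrays.

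The cells were urogenital sinus mesenchyme (UGM) from male C57BL/6 mice at day 16, the stroma that surrounds the epithelium from which the prostate buds. Both groups were kept for 72 h in RPMI medium with the antibiotic Plasmocin (5 µg/ml) and 5% serum stripped of steroids with dextran-coated charcoal. The untreated group received no hormone, and the T+E2 group received testosterone (12 nM) and estradiol-17β (120 pM). There was 1 array in each group, and the series was made to look for genes induced by the 2 hormones. The sample titles give 24 h, whereas the characteristics and the treatment protocol give 72 h. The descriptions call the untreated cells confluent and the T+E2 cells nearly confluent, whereas the growth protocol gives 80% confluency without distinction. Cell density bears on cycling, and any effect of it cannot be told apart from that of the hormones.

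In G1, D-type cyclins bind Cdk4 and Cdk6, and cyclin E binds Cdk2. These kinases phosphorylate the retinoblastoma protein and its relatives, which releases E2F transcription factors to switch on replication genes. Replication origins are licensed when Cdc6 and Cdt1 load the Mcm2-7 helicase, and geminin blocks Cdt1 once DNA synthesis has begun. Later genes for mitosis are switched on through B-Myb, FoxM1 and the MuvB complex. The stroma of the developing prostate carries androgen receptors and passes growth signals to the epithelium.

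The 3 classes carried different sequence letters around their start sites. RefSeq promoter windows (GRCm38.p6), each from 250 bases before to 50 bases after a start site, were found for 35 of the 44 members, 40 windows in all because some genes have more than 1. The motifs searched, on both strands, were E2F letters (TTTGGCGC, TTTCGCGC or TTTCCCGC), the cell cycle homology region or CHR (TTTGAA) and the NF-Y box (CCAAT). E2F letters on opposite strands can overlap at 1 place, while the other motifs were counted as found.

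E2F letters stood in 6 of 12 windows of replication genes (50%), in 3 of 15 windows of G1 regulators (20.0%) and in 1 of 13 windows of mitotic genes (7.69%). Over all 32851 windows of the table the share was 1.84%. CHR letters stood in 10 of 13 mitotic windows (76.9%), against 8.33% for replication genes, 6.67% for G1 regulators and 17.9% for all windows. NF-Y letters stood in 12 of 13 mitotic windows (92.3%), 75% of replication windows and 33.3% of G1 windows, against 37.4% for all. Among the 10717 windows of measured genes the shares were 3.58% for E2F, 11.8% for CHR and 38.1% for NF-Y letters. E2F letters are known from promoters of replication genes, and CHR and NF-Y letters from those of mitotic genes. A match describes the sequence and is not a measured binding site.

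The 4 windows below are shown because they span these patterns and belong to members whose values are given later. Capitals mark the letters of the 3 motifs, and each window is read 5′ to 3′ on the strand of its gene. Mcm6 (chr1:128359656-128359955, minus strand) holds E2F letters at -110 and -106, which overlap on opposite strands, and again at -47, with NF-Y letters at -57 and -14. Cdk1 (chr10:69352863-69353162, minus strand) holds all 3 kinds, with E2F letters at -131 and CHR letters at -71 and -15. Mki67 (chr7:135716330-135716629, minus strand) has CHR letters at -116 and -98 and 3 NF-Y boxes. Cdk6 (chr5:3343643-3343942, plus strand) has none of these letters, and it was the member with the largest difference.
Mcm6: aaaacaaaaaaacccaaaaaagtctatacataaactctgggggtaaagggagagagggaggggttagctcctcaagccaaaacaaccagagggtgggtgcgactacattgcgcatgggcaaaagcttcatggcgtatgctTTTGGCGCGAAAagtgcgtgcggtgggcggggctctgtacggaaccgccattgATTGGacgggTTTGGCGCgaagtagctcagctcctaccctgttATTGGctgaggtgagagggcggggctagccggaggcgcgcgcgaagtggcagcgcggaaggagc
Cdk1: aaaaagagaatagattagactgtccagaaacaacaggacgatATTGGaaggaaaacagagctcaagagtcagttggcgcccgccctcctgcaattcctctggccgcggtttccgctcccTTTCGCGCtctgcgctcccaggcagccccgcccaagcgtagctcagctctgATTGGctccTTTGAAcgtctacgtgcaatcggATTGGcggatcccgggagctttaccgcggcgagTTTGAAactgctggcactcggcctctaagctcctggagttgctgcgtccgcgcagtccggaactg
Mki67: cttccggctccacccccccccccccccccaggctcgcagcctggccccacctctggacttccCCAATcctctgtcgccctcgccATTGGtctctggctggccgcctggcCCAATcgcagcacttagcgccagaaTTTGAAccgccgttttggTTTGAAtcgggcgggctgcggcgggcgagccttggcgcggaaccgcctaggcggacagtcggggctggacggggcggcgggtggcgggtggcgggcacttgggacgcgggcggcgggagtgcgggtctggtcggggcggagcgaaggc
Cdk6: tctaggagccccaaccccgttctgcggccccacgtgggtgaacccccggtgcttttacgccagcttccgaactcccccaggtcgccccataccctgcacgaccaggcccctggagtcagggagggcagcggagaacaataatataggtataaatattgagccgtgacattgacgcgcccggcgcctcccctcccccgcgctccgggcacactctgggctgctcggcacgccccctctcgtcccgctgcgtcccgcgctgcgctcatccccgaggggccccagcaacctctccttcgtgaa

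The values are GCRMA intensities, taken here as log2, and a difference is T+E2 minus untreated on that scale. Where a gene had several probe sets, the value came from the one with the highest mean log2 of the 2 arrays. A gene was counted as measured when it reached a floor of 5 (an intensity of 32) on at least 1 array, and 10267 genes did. With 1 array for each group there are no replicates, so no difference can be set against the spread between cultures and no test was made. As a scale, 18 spike-in control probe sets differed by -0.25 to 0.09 between the arrays, and 36 members lay outside that range. The interquartile range of all measured genes, -0.32 to 0.45, was wider than the spike-in range. The count of 36 therefore does not by itself set the members apart from other genes, whose share outside the range was not counted. In bulk RNA, fewer cells of a kind and less RNA per cell cannot be told apart.

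Few members passed 2-fold between the arrays. Cdk6 alone was 2-fold higher or more with T+E2, none was 2-fold lower and the remaining 42 were within 2-fold. Among all measured genes, 4.96% were at least 2-fold higher and 4.01% at least 2-fold lower. The members' counts, 1 (2.33%) and 0 of 43, are small and lie near that background. Gmnn, at -0.97, lay just short of 2-fold. At 1.5-fold, 7 of 43 members (16.3%) were higher, close to the 17.1% of all genes, and 1 (2.33%) was lower, against 14.1%. The 7 were Cdk6, Rb1, Mcm2, Cdc6, Tyms, Plk1 and Mki67, and the lower one was Gmnn.

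Of the 43 members, 31 (72.1%) lay above 0, against 55.8% of all measured genes. That gap depends on how the probe sets of a gene are combined. With measured probe sets of a gene averaged, 25 of 43 members (58.1%) lay above 0, against 53.6% of all genes. With all probe sets averaged the shares were 59.5% and 51.3%. Without a floor the members stayed at 72.1%, and the share of all genes was 71.6%. That background takes in 7926 genes below the floor on both arrays, so it is not a like comparison. The median member difference was 0.27 (interquartile range -0.06 to 0.44), against 0.07 (-0.32 to 0.45) for all genes. The class medians were 0.18 for G1 regulators, 0.27 for replication genes and 0.28 for mitotic genes. Mitotic and replication medians were 0.02 apart. When probe sets of a gene were averaged instead, the mitotic median was 0.02 and lay 0.31 below the replication median, and with the length trend removed it lay 0.10 below, so these 2 classes have no settled order.

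**Figure D1:**
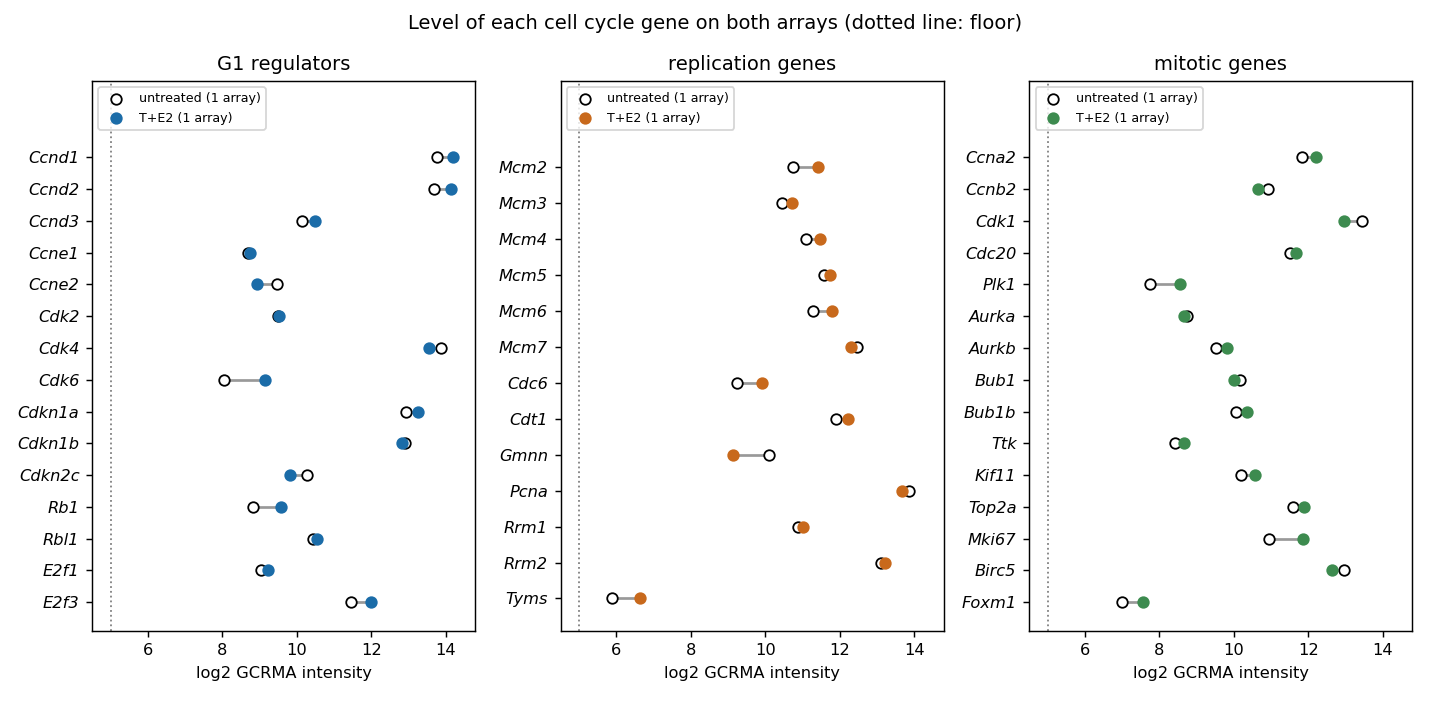
Log2 GCRMA intensity of each of the 43 members on the untreated array (open circles) and the T+E2 array (filled circles), by class, with 1 array per group and no error bars. The widest gaps are those of Cdk6, Gmnn and Mki67, and every member lies above the floor of 5 (dotted line).

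The D-type cyclins, which carry growth signals to the G1 kinases, were all higher with T+E2 on the gene value. Ccnd1 had an intensity of 13950 without and 18703 with the hormones, a difference of 0.42. Ccnd2 stood at 13170 and 18010 (0.45), and Ccnd3 at 1139 and 1436 (0.33). Of their 11 measured probe sets, 10 were higher and 1 of Ccnd2 was level, at -0.02. With a trend of the difference with gene length removed, described later, Ccnd3 stood at -0.03 while Ccnd1 and Ccnd2 stayed at 0.55 and 0.42.

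The partner kinases lay on opposite sides. Cdk6 stood at 264 untreated and 562 with T+E2, a 2.13-fold difference (log2 1.09). A second probe set of Cdk6 differed by 1.81, and the third lay below the floor on both arrays. Averaged over all 3 probe sets the difference was 0.97, under 2-fold. Only 3.74% of measured genes had a higher difference than Cdk6. Cdk4 stood at 15011 and 12001 (-0.32), and all 3 of its probe sets were lower, from -0.58 to -0.31. The sum of both kinases cannot be judged from this, since intensities of different probe sets are not on a common scale.

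Cyclin E and its kinase showed no shared direction. Ccne2 stood at 714 untreated and 485 with T+E2 (-0.56), the lowest difference among the G1 regulators. Its relative Ccne1 stood at 412 and 431 (0.06), with a second probe set at -0.07. Cdk2, the kinase of both cyclins, stood at 719 and 730 (0.02), inside the range of the spike-in controls.

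Among inhibitors of these kinases, Cdkn1a, which encodes p21, stood at 7861 and 9858 (0.33), and its other probe set was higher by 0.40. Cdkn1b, which encodes p27, stood at 7660 and 7314 (-0.07), and a second probe set differed by -0.43. Cdkn2c, which encodes p18 and acts on Cdk4 and Cdk6, stood at 1234 and 911 (-0.44). The 3 inhibitors therefore did not differ as a block.

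The pocket proteins and E2F factors were at or above their untreated level on the gene value. Rb1 stood at 456 untreated and 761 with T+E2 (0.74, 1.67-fold). Rbl1, which encodes p107, stood at 1393 and 1495 (0.10), but its second probe set was at -0.48. E2f3 stood at 2830 and 4116 (0.54), with both probe sets at 0.54. E2f1 stood at 530 and 602 (0.18). Rb1, E2f3 and Rbl1 are long genes, and with the length trend removed they stood at 0.29, 0.22 and -0.14.

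**Figure D2:**
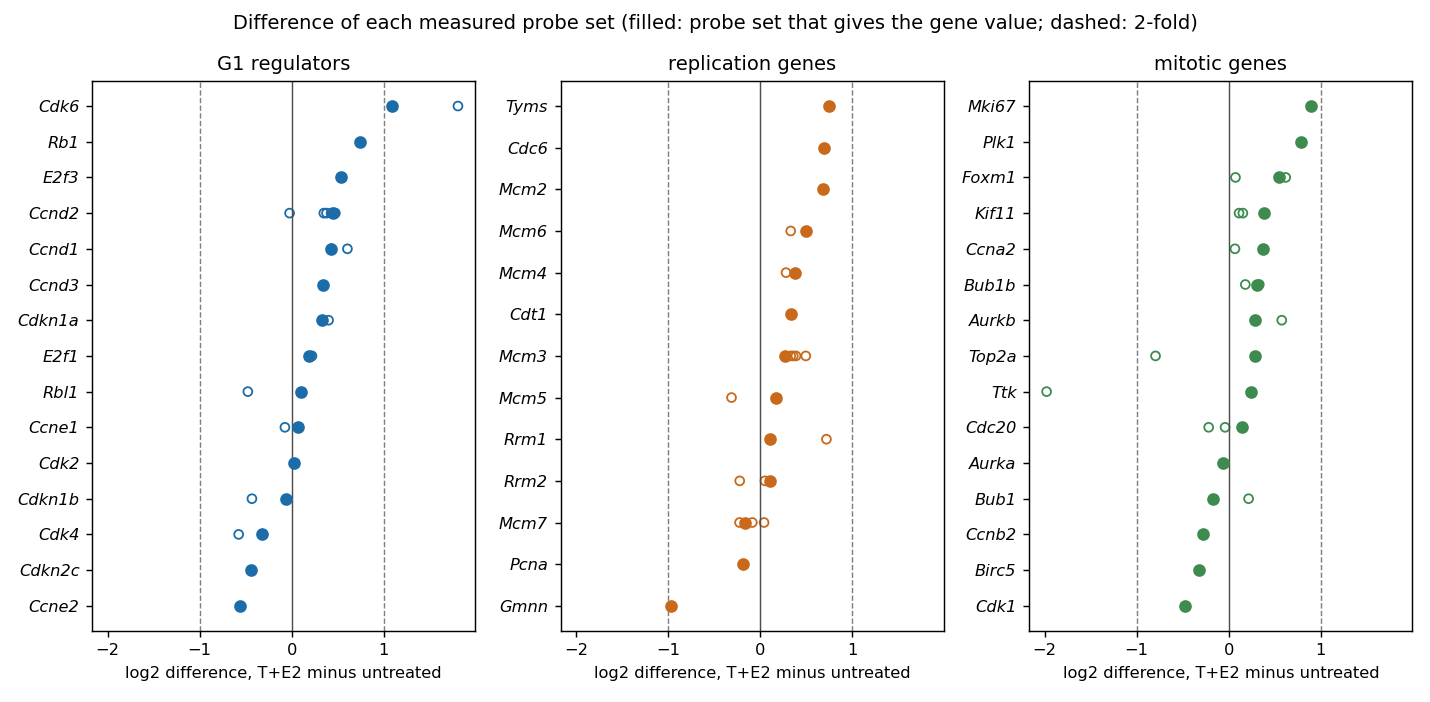
Log2 difference (T+E2 minus untreated) of each measured probe set, with the members of each class ordered by the probe set that gives the gene value (filled) and the other probe sets as open circles. The second Cdk6 probe set lies at 1.81, and single probe sets of Ttk and Top2a lie at -1.98 and -0.80, opposite to the filled points.

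The Mcm2-7 helicase genes were higher for 5 of 6 subunits. Mcm2 stood at 1706 untreated and 2743 with T+E2 (0.68), and both of its probe sets differed by that amount within 0.01. Mcm6 stood at 2513 and 3558 (0.50), Mcm4 at 2196 and 2862 (0.38) and Mcm3 at 1389 and 1672 (0.27, with all 5 probe sets higher). Mcm5 stood at 3044 and 3431 (0.17), and its second probe set was at -0.31. Mcm7 stood at 5653 and 5048 (-0.16), with 3 of 4 probe sets lower. Of the 17 measured Mcm probe sets, 13 were higher and 4 were lower. Under centring on the median of all genes and removal of the level or length trends, Mcm7 stayed below 0 and the other 5 above it. Mcm7 was close to level, at -0.01, with the length trend removed. With measured probe sets averaged, Mcm5 stood at -0.07.

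The loading factor genes Cdc6 and Cdt1 were higher, and the gene of the Cdt1 inhibitor was lower. Genes of the origin recognition complex, which are not members, were mostly lower and are given later. Cdc6 stood at 600 untreated and 969 with T+E2 (0.69, 1.61-fold), from 1 probe set. Cdt1 stood at 3835 and 4818 (0.33), with its second probe set at 0.34. Gmnn, which encodes geminin, stood at 1095 and 559 (-0.97, 1.96-fold lower), also from 1 probe set. This was the lowest difference of all 43 members, and 4.35% of measured genes lay lower. It crossed 2-fold when differences were centred on the median of all genes (-1.04) or the level trend was removed (-1.03).

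Of the genes of DNA synthesis and nucleotide supply, 3 were close to level and Tyms was higher. Pcna, the sliding clamp gene, stood at 14854 and 13004 (-0.19). The ribonucleotide reductase genes Rrm1 and Rrm2 stood at 1899 and 2050 (0.11) and at 8847 and 9512 (0.10), and a weaker Rrm1 probe set differed by 0.72. Tyms, which encodes thymidylate synthase, stood at 58.7 and 98.8 (0.75), near the floor and from the 1 of its 4 probe sets that reached it. The Tyms value thus rests on a weak signal.

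Mitotic genes lay on both sides of 0. Mki67, the gene of the proliferation marker Ki-67, stood at 1989 untreated and 3695 with T+E2 (0.89, 1.86-fold), the highest difference of the class, from 1 probe set. Plk1, a kinase of mitotic entry and spindle assembly, stood at 217 and 373 (0.78). Foxm1, the transcription factor gene that drives many of the others, stood at 128 and 187 (0.54), with 3 measured probe sets higher.

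The mitotic cyclin and kinase genes were on different sides. Ccna2, the cyclin A2 gene, stood at 3665 and 4740 (0.37), and its second probe set was at 0.07. Cdk1, the kinase that drives mitotic entry, stood at 11106 and 7985 (-0.48, 1.39-fold lower), the lowest value of the class. Its partner Ccnb2 stood at 1953 and 1608 (-0.28). Birc5, which encodes survivin of the chromosomal passenger complex, stood at 8000 and 6413 (-0.32). Aurkb, the kinase of that same complex, stood at 740 and 902 (0.29), with a second probe set at 0.58. Aurka, the kinase of centrosome and spindle pole, stood at 425 and 407 (-0.06).

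Checkpoint and spindle genes stayed within small differences on their gene values. Bub1 stood at 1159 and 1027 (-0.17) and Bub1b, which encodes BubR1, at 1060 and 1307 (0.30). Cdc20, the activator of the anaphase-promoting complex, stood at 2933 and 3238 (0.14), with both of its weaker probe sets lower. Kif11, the spindle motor gene, stood at 1165 and 1521 (0.39). Top2a, the topoisomerase gene, stood at 3109 and 3784 (0.28), but its weaker probe set was at -0.80.

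Ttk, which encodes the checkpoint kinase Mps1, showed the widest disagreement between probe sets. The stronger one stood at 343 and 406 (0.24) and the weaker one differed by -1.98. The direction of Ttk therefore depends on which probe set is used. Of 28 members with more than 1 measured probe set, 18 (64.3%) had all of them on the same side, against 69.4% of 4537 such genes. Members had a median SD of 0.16 among their probe sets, against 0.22 for all such genes. Another 15 members rested on a single measured probe set, among them Gmnn, Mki67, Plk1, Cdk1 and Cdc6.

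Differences overlapped between members with and without E2F letters. The 10 members with E2F letters had a median difference of 0.22 (from -0.48 to 0.69) with 8 above 0. The 24 measured members with a window but no such letters had a median of 0.16 (from -0.44 to 1.09) with 16 above 0. Of all measured genes 55.8% lay above 0. The search took exact letters in short windows only. A gene without a match, such as E2f1, Mcm2 or Pcna, is therefore not shown to lack E2F sites. Cdk1 and Mki67, whose windows both hold CHR and NF-Y letters, stood at -0.48 and 0.89.

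Wider lists of cell cycle genes, 180 genes that are not members, gave a mixed picture. Of 170 measured, 5 were higher by 2-fold or more (2.94%) and 4 were lower by as much (2.35%), and the median difference was 0.03. Among all genes the shares were 4.96% and 4.01%. The 9 genes are named in what follows.

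The list of licensing and fork genes differed from the members of the same step. Of its 44 measured genes, 16 (36.4%) were at least 1.5-fold lower with T+E2, against 14.1% of all genes, and 4 (9.09%) were at least 1.5-fold higher. Its median was -0.05. Pole, the catalytic subunit gene of the leading-strand polymerase, stood at 382 and 881 (1.21, 2.31-fold higher), whereas Pole2, its second subunit, stood at 993 and 616 (-0.69). Gins2, a subunit gene of the GINS part of the replicative helicase, stood at 1687 and 758 (-1.15). Orc4, of the origin recognition complex, stood at 4270 and 2018 (-1.08), but its 4 probe sets ranged from -1.08 to 0.01, and averaged they gave -0.48.

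Whole complexes of that list were then looked at, chosen after their values were seen. All 4 GINS genes were lower, from -1.15 to -0.67. Of the origin recognition complex, 5 of 6 were lower, with a median of -0.70, and of the clamp loader RFC 4 of 5, with a median of -0.62. Rfc1, the large subunit gene of the clamp loader, stood at 2756 and 4699 (0.77). Rfc2, counted as lower, was close to level at -0.03, and stood at 0.03 with the length trend removed. With the length trend removed the medians were -0.71 for GINS, -0.78 for the origin recognition complex and -0.50 for RFC, while the 6 Mcm genes had a median of 0.39 (0.32 without that step). Medians of the Mcm genes and of these complexes lay on opposite sides of 0, with Mcm7, Orc1 and Rfc1 as exceptions by gene value. Because these complexes were chosen after their values were seen, that contrast followed from the choice. Over the whole list 21 genes (47.7%) lay above 0 and 23 below, against 55.8% of all measured genes above. The polymerase genes Pold1, Pold2 and Pold3 were among those above (0.43, 0.06 and 0.14), and Prim1 and Prim2 among those below (-0.56 and -0.24).

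Among 21 measured genes of G1 control and the E2F and DREAM complexes, the repressive E2F gene E2f7 stood at 262 and 660 (1.33, 2.52-fold higher) and Tfdp2, an E2F dimerization partner, at 602 and 1273 (1.08). None was 2-fold lower and the median was -0.02. E2f2, Lin52 and Mybl2, the gene of B-Myb, were below the floor on both arrays and could not be read. With the length trend removed E2f7 stood at 1.19 and Tfdp2 at 0.64. Among 13 inhibitors and arrest genes, the antiproliferative gene Btg2 stood at 190 and 1151 (2.60, 6.04-fold higher). Its second probe set differed by 1.44 and the average by 2.02. In that list 9 genes lay below 0 and 4 (30.8%) above, against 55.8% of all measured genes above. The median was -0.09. With the length trend removed the median was 0.07 and 9 genes lay above 0, against 51.3% of all genes.

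Of 19 checkpoint and repair genes none was 2-fold different, and the largest were Clspn (0.97), which encodes the Chk1 adaptor claspin, and Brca2 (0.90). Of 40 kinetochore, spindle and cytokinesis genes, the citron kinase gene Cit was higher (1.15) and the kinesin gene Kif18a 2.01-fold lower, with a median of 0.09. Of 17 condensin and cohesin genes none was 2-fold different on the gene value, with a median of 0.40 that became -0.03 with the length trend removed, and Pds5a (-0.99) and Ncaph (0.98) were farthest apart. Pds5a passed 2-fold on the low side with centring (-1.07), the level trend removed (-1.10), the length trend removed (-1.36) or its 3 probe sets averaged (-2.04). Of 16 genes of the anaphase-promoting complex, Cdc26 was lower (-1.23). Of the 16, 10 lay below 0 and 6 (37.5%) above, against 55.8% of all measured genes above. The median was -0.26, or -0.17 with the length trend removed. Cit stood at 0.66 with the length trend removed. Averaged over all probe sets, those below the floor included, Cdc26 stood at -0.13, Kif18a at -0.49, Tfdp2 at 0.51 and Gins2 at -0.96, none of them 2-fold.

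**Figure D3:**
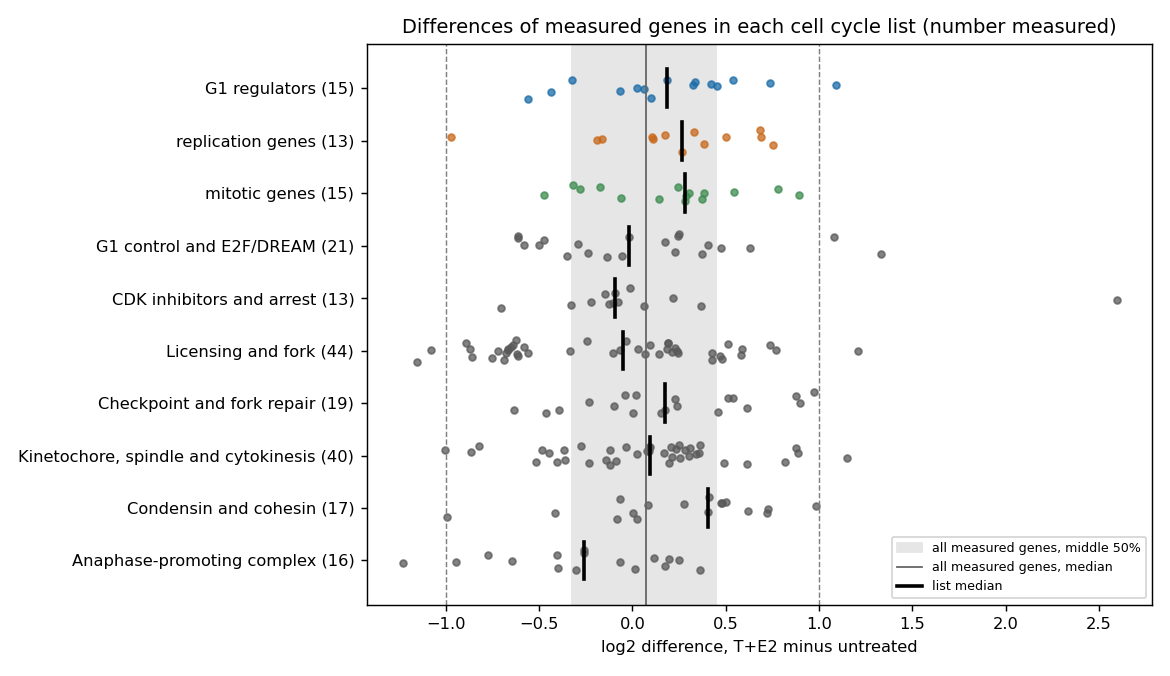
Log2 difference (T+E2 minus untreated) of every measured gene in the 3 member classes (coloured) and 7 wider lists (grey), with list medians as black bars and the median and middle 50% of all measured genes as line and band. Class medians are 0.18, 0.27 and 0.28, and 16 of the 44 licensing and fork genes lie at least 1.5-fold on the low side.

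Genes with a longer genomic span (the length from first to last base) tended to have higher differences, members included. The 14 members of shortest span (up to 9.74 kb) had a median difference of 0.04, and 8 of them lay above 0. The 14 of longest span (27.0 to 190.0 kb) had a median of 0.36, and 13 lay above 0. All measured genes within the same spans had medians of -0.16 and 0.25, with 37.8% and 69.1% of them above 0. Pearson's r of the difference with log10 span was 0.49 over the 43 members and 0.36 over 10237 genes, a description across genes of the same 2 arrays. With the trend removed, Cdk6 (span 190.0 kb) stood at 0.58 and no member was 2-fold different. Gmnn stood at -0.85 and Mki67 at 0.86, and the member median was 0.22. Of the 43 members 31 lay above 0, against 51.3% of all genes.

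**Figure D4:**
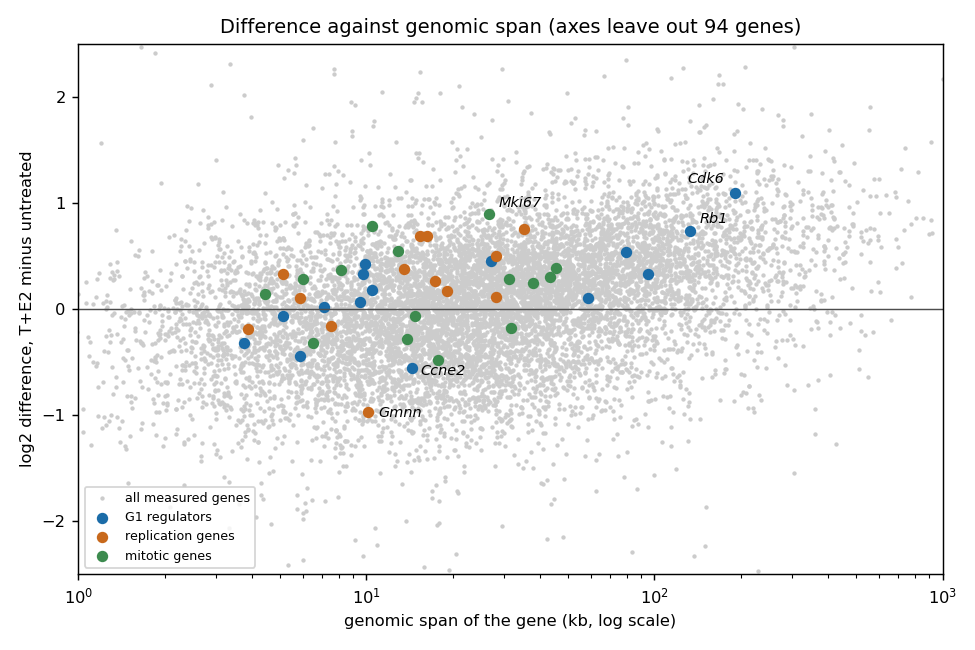
Log2 difference (T+E2 minus untreated) against genomic span (kb, log axis) for all measured genes within the axes (grey) and the members by class (coloured). Cdk6 and Rb1 sit at the long end of a cloud that rises with span. Gmnn and Mki67 sit at shorter spans within the cloud, toward its low and high sides.

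The part of span, RNA quality or labelling in these differences was not tested. The 3′ minus 5′ signal of the Gapdh control probe sets was 1.19 (log2) without and 1.11 with the hormones, and the same measure for beta-actin differed by -0.07. Of 12 mesenchymal markers 10 were measured, and 1 of them, Tagln, was 2-fold different (-1.43). Of 10 epithelial markers 2 were measured, of which Cdh1 stood at 41.4 and 190 (4.59-fold higher) and Trp63 at 255 and 352, while the other 8, Epcam and the keratins among them, were below the floor on both arrays. Of 6 endothelial markers 1 was measured, and of 7 leukocyte markers 1, Lyz2, was measured and lower (-1.53). Summed intensities were 332 untreated and 578 with T+E2 for the epithelial list, 926 and 1062 for endothelium, and 1096 and 400.0 for leukocytes. These sums mix probe sets that are not on a common scale. They rest mostly on Trp63 and Cdh1, on Tek (904 and 1040) and on Lyz2 (1065 and 369), so they do not measure amounts of these cells. The part of other cell types in the members' differences was not tested.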

How the data were processed

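RNA from 2 samples, 1 untreated and 1 T+E2, was hybridized to Affymetrix mouse arrays with 45101 probe sets. The authors deposited GCRMA intensity values on a linear scale, per the submitters' processing notes, its version not being given in the sources used here. RNA came from an Omega Bio-Tek kit and the label from NuGEN kits, per the labels' protocols. The number of arrays limits the precision.

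Here log2 was taken with no further scaling, and both arrays were raised to a floor of 5 before a difference was formed. Probe sets were named from the platform annotation through the RefSeq gene table (GRCm38.p6). There were 34945 with 1 gene, 932 with several (left out), 9160 unnamed and 64 controls. Genes at least 2-fold different were counted, with no test. All 43 readable members are given. From each wider list, up to 4 genes past 2-fold are named, or otherwise the 2 largest differences. Members and lists were chosen with earlier results of these data known. The count and the trend removal (lowess, fraction 0.3, statsmodels 0.14.6, Python 3.11.15) were tested on simulated data. That simulation planted known differences, so it checks the code and not the spread between cultures. The alternatives were other floors (4, 6 or none), averaged probe sets, centring, removal of a level or span trend, agreeing probe sets and a 1.5-fold threshold.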

Additional observations from a re-analysis of the deposited data

How the results depend on the processing

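No paired analysis was possible because each group has 1 array. The SD of the spike-in differences, 0.12, served as the yardstick for a median or gene value that moved. The count of members at least 2-fold higher, 1, was 0 with the mean of all probe sets (Cdk6 at 0.97) and with the span trend removed (0.58), and 7 at a 1.5-fold threshold. The count at least 2-fold lower, 0, was 1 with median centring, with the level trend removed and at the 1.5-fold threshold, each time Gmnn. Floors of 4, 6 or none and agreeing probe sets (33 members) left both counts as they were.

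The medians of all members, G1 regulators and replication genes moved by less than the yardstick in every alternative run. The mitotic median of 0.28 was 0.0204 with the mean of all or of measured probe sets, and mitotic minus replication was then -0.23 and -0.31 in place of 0.02. It was -0.10 with the span trend removed and -0.05 with agreeing probe sets. Averaging takes in weaker probe sets, such as those of Ttk and Top2a. Of the wider lists, G1 control went from -0.02 to 0.17 with measured probe sets averaged, and inhibitors from -0.09 to 0.074 with the span trend removed. Condensin and cohesin went from 0.40 to -0.034 with the span trend removed and to 0.22 with the mean of all probe sets. Where no construction is given, the cause was not tested. Of the 43 members, 31 kept their sign in every alternative (22 above 0 and 9 below) and 12 did not in at least 1. The count above 0, 31, was 25 with either averaging (of 42 with all probe sets, of 43 with measured ones), 29 with centring or the level trend removed, 31 with the span trend removed and 23 of 33 with agreeing probe sets.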
